A study of Mus musculus with 6 samples.

Results

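Transcripts of 9 hepatobiliary transporters, chosen by name for the step of bile acid and organic anion transport that they carry out, were examined in mouse liver tumors with and without Top1mt, the gene of the mitochondrial topoisomerase IB. The 9 genes, of 30236 listed, were Slc10a1, Slco1a1, Slco1a4 and Slco1b2 for uptake from blood, Abcb11, Abcb4 and Abcc2 for export into bile, and Abcc3 and Abcc4 for export back into blood. All 9 passed the filter that removed the lowest 25% of genes by mean level. The choice was by role, made with earlier results of these data known. RNA was sequenced from 3 tumors of WT mice and 3 tumors of Top1mt-KO mice, the knockout being constitutive, in tumor and host cells alike. The mice were C57BL/6 males, littermates from heterozygous breeding. Across the study several litters were treated at different times, without randomization, and the labels do not give the litter of each library. Both genotypes received diethylnitrosamine on postnatal day 14 to start tumors and carbon tetrachloride, a hepatotoxin, for 14 weeks from week 8, and tumors were collected at 22 weeks. There was therefore no untreated liver and no tumor-free tissue among the 6 libraries. Expression is given as log2 values that the authors normalized across libraries before deposit, and the reads behind each library are unknown, so differences are given on the log2 scale with the spread among 3 libraries as their only measure of error.

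Hepatocytes are polarized cells that take bile acids up across the basolateral membrane, which faces the blood, and secrete them across the canalicular membrane into bile. Slc10a1 encodes the sodium-dependent bile acid carrier, and the Slco1 genes encode sodium-independent organic anion carriers of broad specificity. Abcb11 encodes the bile salt export pump, Abcb4 the flippase that supplies phosphatidylcholine to bile, and Abcc2 the pump for conjugated organic anions such as bilirubin glucuronide. Abcc3 and Abcc4 encode related pumps in the basolateral membrane that return organic anions to blood and are known to be induced in cholestasis. Expression of these genes is governed in part by nuclear receptors: FXR, which senses bile acids, acts on Abcb11 through an inverted repeat of its half-site, the xenobiotic receptors CAR and PXR act on Slco1a4, and the antioxidant factor NRF2 acts on Abcc3 and Abcc4. Slco1a1 is known for male-predominant expression in mouse liver.

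The starting point for the comparison of regulation is the sequence next to each gene. Windows of 250 bases upstream of an annotated start were taken from RefSeq on GRCm38.p6, which held at least 1 window for 8 of the 9 genes and none for Abcc3. The windows of Abcb11, Slco1b2 and Abcc2 are shown because they hold a motif of a hepatic regulator, and those of Slco1a4 and Slco1a1 because these neighboring genes varied most among the tumors. They lie at chr2:69342617-69342866 on the minus strand, chr6:141629268-141629517 on the plus strand, chr19:43782058-43782307 on the plus strand, chr6:141856221-141856470 on the minus strand and chr6:141946963-141947212 on the minus strand. Each is written 5′ to 3′ along its gene, ending at the base before the start, with motif matches in capitals.
Abcb11: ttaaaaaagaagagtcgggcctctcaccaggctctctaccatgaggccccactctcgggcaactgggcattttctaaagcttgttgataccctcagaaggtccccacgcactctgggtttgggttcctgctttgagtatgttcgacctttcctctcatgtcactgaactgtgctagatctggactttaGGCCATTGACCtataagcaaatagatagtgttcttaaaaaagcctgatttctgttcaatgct
Slco1b2: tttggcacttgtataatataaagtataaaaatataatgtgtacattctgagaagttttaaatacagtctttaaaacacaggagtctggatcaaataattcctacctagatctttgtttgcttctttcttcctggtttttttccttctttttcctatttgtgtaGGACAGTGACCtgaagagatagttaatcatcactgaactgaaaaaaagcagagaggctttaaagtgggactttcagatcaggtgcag
Abcc2: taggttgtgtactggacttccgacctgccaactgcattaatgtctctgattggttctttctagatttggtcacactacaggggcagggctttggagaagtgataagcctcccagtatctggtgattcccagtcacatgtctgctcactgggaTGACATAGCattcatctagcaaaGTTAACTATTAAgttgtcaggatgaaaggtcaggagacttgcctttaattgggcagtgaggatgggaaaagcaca
Slco1a4: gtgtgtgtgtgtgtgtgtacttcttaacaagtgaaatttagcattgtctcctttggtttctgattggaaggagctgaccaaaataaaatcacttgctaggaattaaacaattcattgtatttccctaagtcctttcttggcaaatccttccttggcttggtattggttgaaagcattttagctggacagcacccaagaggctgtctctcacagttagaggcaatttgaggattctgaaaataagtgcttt
Slco1a1: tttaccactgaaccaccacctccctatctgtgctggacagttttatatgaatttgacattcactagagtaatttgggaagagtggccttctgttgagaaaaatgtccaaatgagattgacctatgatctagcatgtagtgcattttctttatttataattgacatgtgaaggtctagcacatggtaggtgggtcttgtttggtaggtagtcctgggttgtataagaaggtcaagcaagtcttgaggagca

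The inverted repeat of the FXR type was searched on both strands as the half-sites GGNCA and TGNCC with 1 base between them, and was found in 0.575% of 32851 upstream windows of the same length. Among the transporters it was present in Abcb11 as GGCCATTGACC, 62 to 52 bases upstream, and in Slco1b2 as GGACAGTGACC, 87 to 77 bases upstream. The HNF1 motif, GTTAA and ATTAA with 2 bases between them, present in 0.143% of windows, was found in Abcc2 as GTTAACTATTAA, 75 to 64 bases upstream. An antioxidant response core, TGACNNNGC, is far commoner, in 10.2% of windows, and was found in Abcc2 as TGACATAGC, 98 to 90 bases upstream, and in both windows of Abcc4. The direct repeat of AGGNCA with 1 base between its copies, present in 0.338% of windows, matched no window of these genes. The windows of Slco1a4 and Slco1a1 held none of these letters, which says only that they are not in these 250 bases, and every match is a description of sequence and not a mapped binding site.

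The targeted gene and the tissue were examined before the transporters. Top1mt had log2 values of 7.71, 5.99 and 8.01 in WT (here and below in the order of replicates 1, 2 and 3), against 5.58, 6.41 and 6.32 in KO. The library labelled WT replicate 2 therefore lay below KO replicates 2 and 3, against its label, and the difference of each transporter between genotypes is given below with and without it. Its log2 fold change was -1.13 (SE 0.52; limma, adjusted p = 0.999; exact permutation test, p = 0.3). Hepatocyte markers were abundant in all 6 libraries, with the log2 of their summed level between 20.6 and 21.4, while the cholangiocyte list of 8 genes summed to between 11.8 and 12.8. Gm42418, annotated over a ribosomal RNA repeat, made up 17.7% of the summed linear signal in KO replicate 1 and at most 0.387% elsewhere, so the same differences are also given without KO replicate 1. In bulk tumor RNA, fewer hepatocytes and less transcript per hepatocyte cannot be told apart.

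Across the 22677 genes tested, 0 passed an adjusted p of 0.05 by limma (0% of genes), while 985 (4.34%) had an unadjusted p under 0.05. None of the 9 transporters passed the adjusted threshold either, each with an adjusted p of 0.999 by limma. At the unadjusted level 2 of the 9 passed, Slc10a1 and Abcb11, both higher in KO, against 1.79% of all genes that were higher at that level, and 0 of 9 passed it without WT replicate 2 or without WT replicate 3. Abcb11 was the 1 transporter of 9 whose groups did not overlap, against 8.28% of all genes, and 3.95% in that direction. Of the 9, 5 had a positive log2 fold change, against 47.7% of all genes, and the median was 0.15, against -0.02 over all genes. With 3 libraries against 3 the exact permutation test of a single gene allows no p below 0.1.

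**Figure D1:**
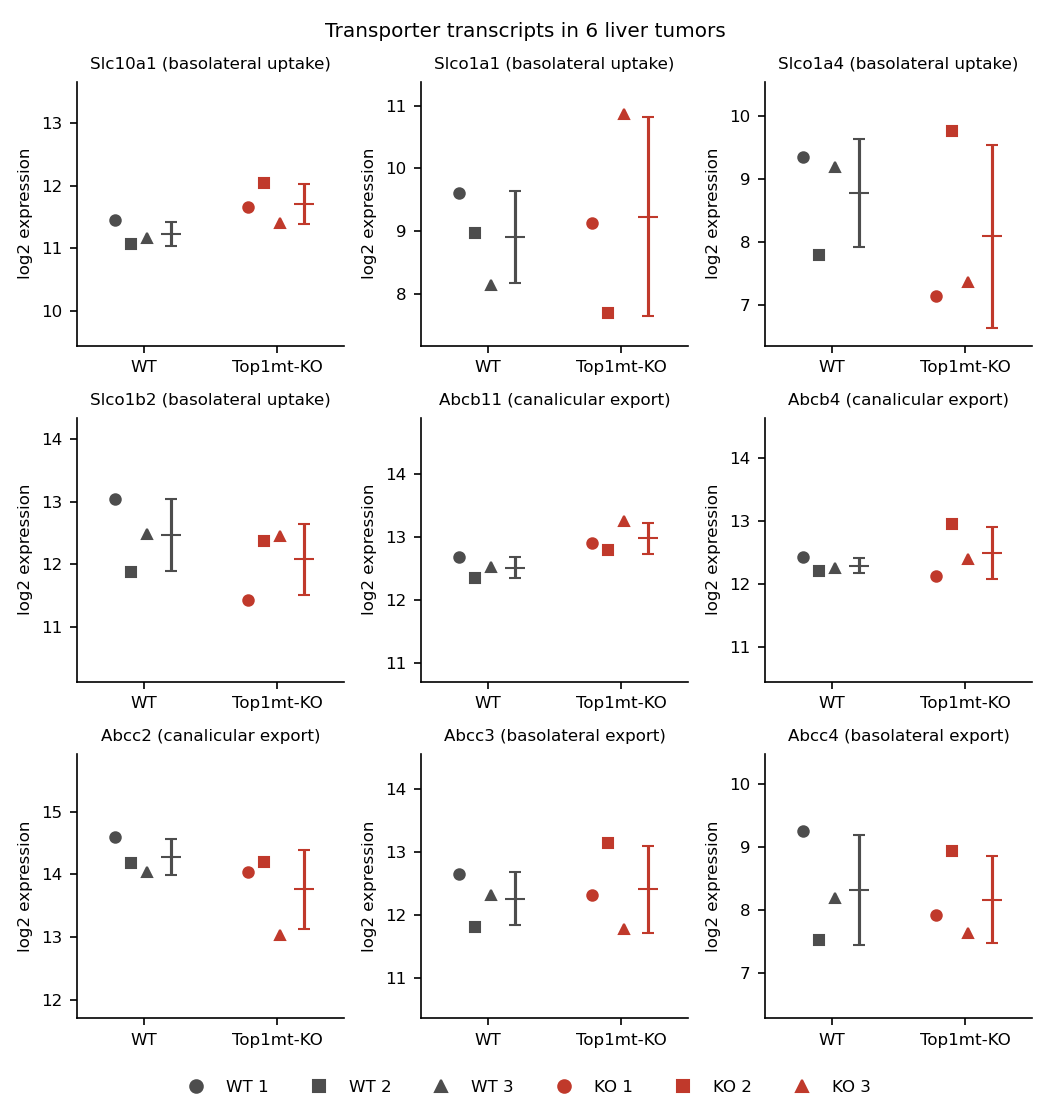
Log2 expression of the 9 transporters in each tumor (y axis; every panel spans the same range of log2 units), with WT in grey and Top1mt-KO in red, the replicate number given by the marker and the mean ± SD of 3 libraries beside the points. The 3 KO libraries lie above the 3 WT libraries for Abcb11, and the points of both genotypes are interleaved for the other transporters, with the widest scatter for Slco1a1 and Slco1a4.

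Among the uptake carriers, the sodium-dependent carrier Slc10a1 was the steadiest. Its log2 values were 11.45, 11.07 and 11.17 in WT and 11.67, 12.04 and 11.40 in KO. Only KO replicate 3 lay within the WT range, just under WT replicate 1, so the groups overlapped by that single library. KO exceeded WT by 0.47 on the log2 scale (SE 0.20, 95% interval 0.02 to 0.92), or 1.39-fold (limma, unadjusted p = 0.0433, adjusted p = 0.999; exact permutation test, p = 0.2). This log2 fold change was 0.39 without WT replicate 2 and 0.49 without KO replicate 1, and it stayed positive when each library was left out in turn, between 0.30 and 0.62.

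Slco1b2, the liver-restricted organic anion carrier, had log2 values of 13.03, 11.88 and 12.48 in WT and 11.43, 12.37 and 12.44 in KO. The highest value was a WT library and the lowest KO replicate 1, with the other libraries interleaved. Between genotypes the log2 fold change was -0.38 (SE 0.36; limma, adjusted p = 0.999; exact permutation test, p = 0.4). It moved to -0.67 without WT replicate 2 and to -0.06 without KO replicate 1, so its size rested on single libraries. The windows of Slco1b2 and Abcb11 both hold the inverted repeat shown above. Their log2 fold changes had opposite signs, neither passed the adjusted threshold, and a part of the repeat in either was not tested.

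The organic anion carriers Slco1a1 and Slco1a4 differed far more between tumors than between genotypes. Slco1a1 had log2 values of 9.60, 8.98 and 8.14 in WT and 9.13, 7.70 and 10.86 in KO. The highest and the lowest of the 6 values were therefore both KO libraries, replicates 3 and 2, and all WT values lay between them. Between genotypes the log2 fold change was 0.32, with a 95% interval from -1.36 to 2.0 (limma, adjusted p = 0.999; exact permutation test, p = 0.9), and it changed sign when KO replicate 3 was left out, to -0.49. Its SD over the 6 libraries, 1.12, exceeded that of 97.0% of genes tested and of 99.3% of genes of a similar mean level.

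Slco1a4 had log2 values of 9.34, 7.79 and 9.19 in WT and 7.13, 9.77 and 7.35 in KO. Here KO replicate 2 was the highest library and KO replicates 1 and 3 the lowest, so that KO replicates 2 and 3 stood in the opposite order from Slco1a1. Its log2 fold change was -0.69, with a 95% interval from -2.33 to 0.95 (limma, adjusted p = 0.999; exact permutation test, p = 0.5). It was -1.18 without WT replicate 2 and -0.21 without KO replicate 1. The SD over the 6 libraries was 1.14, above 97.2% of genes tested and 98.9% of genes of a similar mean level. Within each tumor, Slco1a4 minus Slco1a1 on the log2 scale came to -0.26, -1.19 and 1.05 in WT, compared with -2.0, 2.06 and -3.51 in KO. The mean of this difference was lower in KO by a log2 change of -1.01, well within the spread of the KO libraries (exact permutation test, p = 0.7), and it was -1.54 without WT replicate 2 and -0.59 without KO replicate 1. A short share of the transcript is common to these 2 genes and Slco1a5: 33 of 3805 windows of 100 bases in Slco1a1 and 41 of 3724 in Slco1a4 occur in another gene, and the part of this shared sequence in either value was not tested.

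Of the canalicular exporters, the bile salt export pump gene Abcb11 had log2 values of 12.68, 12.35 and 12.52 in WT and 12.90, 12.79 and 13.26 in KO. All 3 KO libraries lay above all 3 WT libraries, with 0.11 between the closest values of the groups. The difference came to 0.47 on the log2 scale (SE 0.19, 95% interval 0.03 to 0.91), or 1.38-fold (limma, unadjusted p = 0.0400, adjusted p = 0.999; exact permutation test, p = 0.1, the smallest it can give). Its log2 fold change was 0.38 without WT replicate 2 and 0.51 without KO replicate 1. The exons of Abcb11 overlap 2 annotated genes on the opposite strand over 155 bases. Libraries were stranded but the strand setting of the counting is not given in the sources used here, so a small contribution from those genes was not tested.

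The difference between Slc10a1, the principal uptake carrier for conjugated bile acids, and Abcb11, their principal exporter, was nearly the same in all WT tumors. Slc10a1 minus Abcb11 on the log2 scale came to -1.24, -1.27 and -1.35 in WT, compared with -1.24, -0.75 and -1.86 in KO. Its WT mean was -1.29 ± 0.06 (SD, n = 3) and its KO mean -1.28 ± 0.55 (SD, n = 3), 0.0033 apart (exact permutation test, p = 1), or 0.010 apart without WT replicate 2 and -0.019 without KO replicate 1. The KO libraries 2 and 3 lay on either side of the WT range, and whether the spread of the genotypes differs was not tested.

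Abcb4, the phospholipid flippase gene, had log2 values of 12.42, 12.20 and 12.25 in WT and 12.13, 12.95 and 12.40 in KO. Only KO replicate 2 stood clear of the other libraries. For Abcb4 the log2 fold change was 0.20 (SE 0.23; limma, adjusted p = 0.999; exact permutation test, p = 0.7) and was -0.03 without KO replicate 2. Of 3980 windows of 100 bases in its longest transcript, 11 also occur in Abcb1a, a multidrug pump gene.

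Abcc2, the conjugate export pump gene with the HNF1 motif in its window, had log2 values of 14.59, 14.19 and 14.04 in WT and 14.04, 14.20 and 13.04 in KO. KO replicate 3 was the lowest library by a wide margin, and the other KO libraries lay within the WT range. For Abcc2 the log2 fold change was -0.51 (SE 0.34; limma, adjusted p = 0.999; exact permutation test, p = 0.5) and was -0.15 without KO replicate 3. The same library held the highest values of Abcb11 and of Slco1a1. Leaving out WT replicate 2 gave log2 fold changes of 0.36 for Slco1a1, 0.16 for Abcb4 and -0.55 for Abcc2, and leaving out KO replicate 1 gave 0.37, 0.38 and -0.65.

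Of the basolateral exporters, Abcc3 had log2 values of 12.66, 11.81 and 12.32 in WT and 12.31, 13.15 and 11.78 in KO, with KO libraries at both ends of the range. Its log2 fold change was 0.15 (SE 0.36; limma, adjusted p = 0.999; exact permutation test, p = 1). It was -0.07 without WT replicate 2, 0.20 without KO replicate 1 and -0.22 without KO replicate 2. Abcc4 had log2 values of 9.25, 7.51 and 8.19 in WT and 7.91, 8.94 and 7.63 in KO, with WT libraries at both ends. The genotypes differed by -0.15 in Abcc4 (log2 fold change, SE 0.48; limma, adjusted p = 0.999; exact permutation test, p = 0.8), and this ran from -0.56 without WT replicate 2 to 0.31 without WT replicate 1, with -0.03 without KO replicate 1. The SD of Abcc4 over the 6 libraries, 0.71, was above that of 96.1% of genes of a similar mean level.

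Since Abcc3 is a basolateral and Abcc2 a canalicular route for glucuronides, their difference within each tumor was also taken. Abcc3 minus Abcc2 on the log2 scale came to -1.93, -2.38 and -1.72 in WT, compared with -1.73, -1.05 and -1.27 in KO. KO replicate 1 lay just below WT replicate 3, and the other KO libraries were above all WT libraries. The mean of this difference was 0.66 higher in KO (exact permutation test, p = 0.2), 0.48 without WT replicate 2 and 0.85 without KO replicate 1. Abcc4 minus Slc10a1, a basolateral exporter against a basolateral uptake carrier, was 0.62 lower in KO on the same scale, at -3.54 ± 0.38 against -2.92 ± 0.68 (SD, n = 3; exact permutation test, p = 0.2), a difference of -0.62 that ran from -0.95 to -0.27 when each library was left out.

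**Figure D2:**
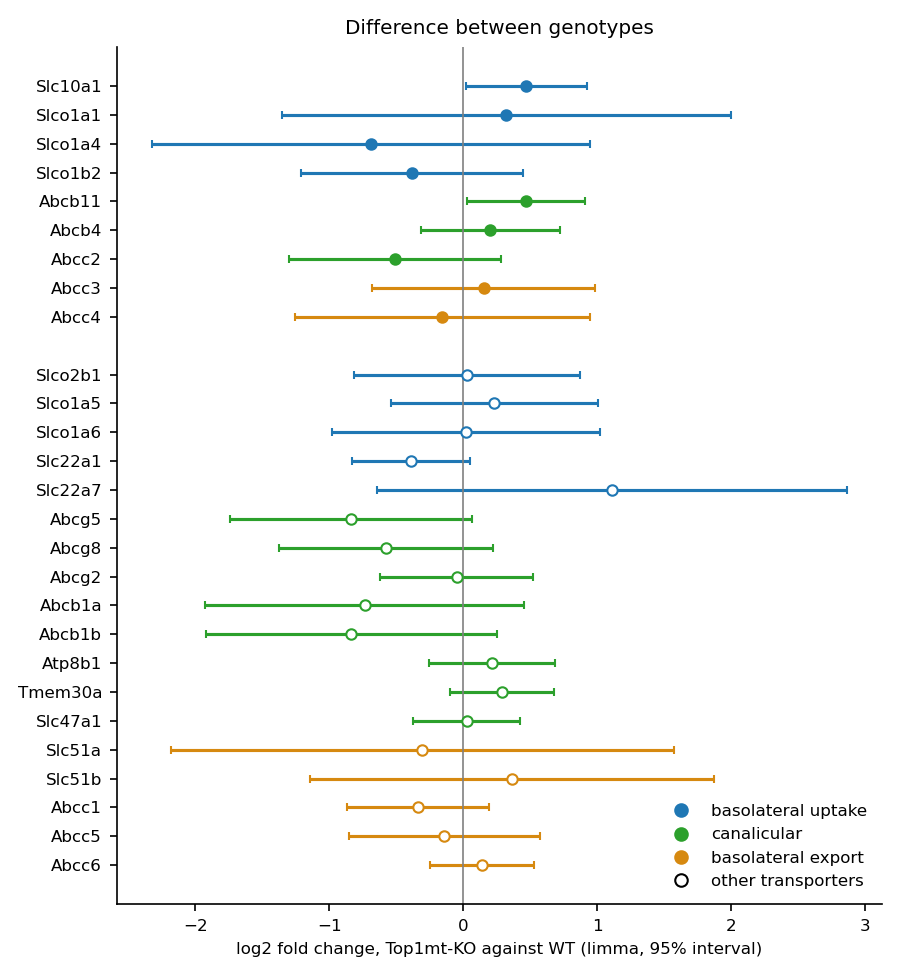
Log2 fold change of Top1mt-KO against WT from limma (x axis) with its 95% interval for the 9 transporters (filled points) and 18 other hepatic transporters (open points), colored by membrane and direction. The intervals of Slc10a1 and Abcb11 lie just above 0, those of the other transporters include 0, and the intervals of Slco1a1 and Slco1a4 are the widest of the 9.

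When scaled to exon length, the transcripts formed a group of 6 abundant and a group of 3 scarcer genes. The log2 level per kb of annotated exon, as a mean over the 6 libraries, was 10.92 for Abcc2, 10.39 for Abcb11, 10.33 for Slc10a1, 9.97 for Slco1b2, 9.83 for Abcc3 and 9.16 for Abcb4. It was 6.67 for Slco1a1, 5.75 for Slco1a4 and 5.56 for Abcc4, with a step of 2.49 between Abcb4 and Slco1a1 on this scale. That step held in 6 of 6 libraries, as did the order of Abcc3 above Abcb4. The other neighbors in this order exchanged places in 1 or 2 libraries, so their ranks did not differ beyond the spread between tumors. Exon lengths came from GENCODE on GRCm38 and count all annotated exons, so levels of genes with many unused exons are understated on this scale.

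**Figure D3:**
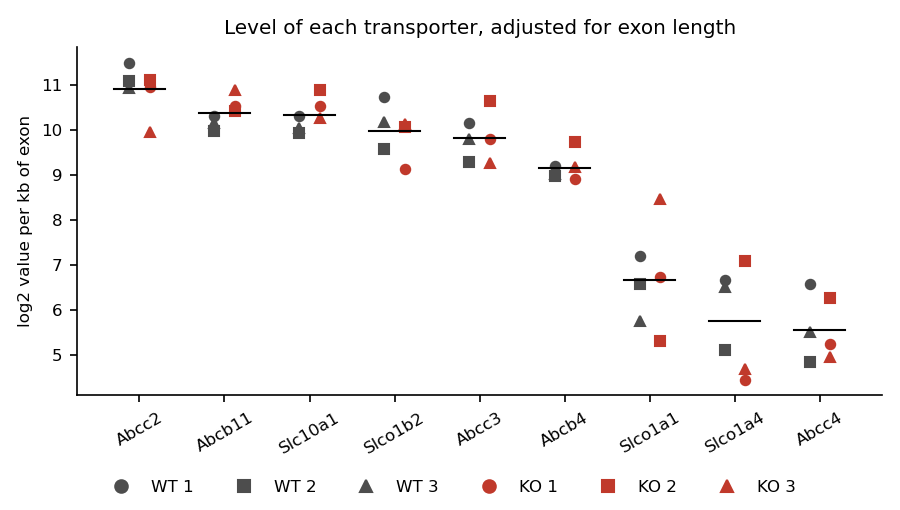
Log2 value per kb of annotated exon (y axis) for each transporter in the 6 tumors, ordered by the mean (black line), with WT in grey and Top1mt-KO in red. Abcc2 leads at 10.92, and Slco1a1, Slco1a4 and Abcc4 lie below all values of the other 6 transporters in every tumor.

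The spread among tumors was partly shared between transporters. Slco1a4, Abcb4, Abcc2, Abcc3 and Abcc4, 5 of the 9, had KO replicate 2 and WT replicate 1 as their 2 highest libraries, 1 of each genotype. Over all genes tested, the deviations of these libraries from their genotype means had r = 0.126. That was the highest of any WT and KO pairing, but barely above the 0.123 of WT replicate 2 with KO replicate 1. The share of all genes with KO replicate 2 and WT replicate 1 highest was not counted, here or for the lists below. Over the 6 libraries the correlation of Abcc3 with Abcc4 was r = 0.88 (exact permutation test, p = 0.025; Spearman rho = 0.89, p = 0.0333), and it was 0.91 without the 2 libraries farthest from the median of Abcc3. After adjustment over the 36 pairs of transporters the p was 0.465 for r and 0.58 for rho, and no pair passed the threshold. Slco1a1 and Slco1a4 had r = -0.63 and rho = -0.54, with exact permutation p of 0.203 and 0.297 (0.465 and 0.629 after adjustment over the 36 pairs). Without KO replicates 2 and 3, the 2 libraries farthest from the median of Slco1a1, r was -0.13, so the opposed order of these carriers rested on those 2 tumors.

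To place this spread, each transporter was set against the mean centred log2 level of 5 lists of liver genes, none of which contains a transporter of the 9. The NRF2 list holds 12 genes of antioxidant defense and the CAR and PXR list 10 genes of xenobiotic metabolism. The male-biased list holds 10 genes, the female-biased list 12 and the pericentral list 9 that were measured. These made 45 relations, of which none passed the threshold after Benjamini-Hochberg adjustment, where the smallest adjusted p was 0.0625. The points of each relation come from the same 6 libraries and share their depth and normalization. The relations given first below are those of highest r among the 45, and regulation was not tested.

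Among the lists, Abcc3 had its highest r with the NRF2 list. The mean centred level of that list came to 0.48, -0.58 and 0.23 in WT, compared with -0.18, 0.74 and -0.70 in KO, and the 6 libraries stood in the same order for Abcc3. The correlation was r = 0.96 (exact permutation test, p = 0.00139, adjusted p = 0.0625) and rho = 1 (p = 0.00278, adjusted p = 0.0625), and r was 0.93 without KO replicates 2 and 3, the 2 farthest from the median. Among the genes of the list, the quinone reductase gene Nqo1 had log2 values of 9.65, 7.44 and 8.63 in WT and 8.24, 9.24 and 5.76 in KO. The glutathione transferase gene Gstm1 had 15.44, 13.12 and 14.22 in WT and 13.93, 15.76 and 13.34 in KO. In both, as in 9 of the 12 genes of the list, WT replicate 1 and KO replicate 2 were the 2 highest libraries. The exceptions were Txnrd1, Hmox1 and Osgin1, and in Osgin1 these 2 libraries were the lowest, at 10.85 and 10.55. Abcc4 had r = 0.92 with the same list (exact permutation test, p = 0.0153, adjusted p = 0.172) and rho = 0.89 (p = 0.0333, adjusted p = 0.328), with r also 0.92 without the 2 farthest libraries.

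Slco1a4 had its highest r with the CAR and PXR list. The mean centred level of that list came to 0.68, -0.40 and -0.01 in WT, compared with -0.72, 0.87 and -0.41 in KO. The correlation was r = 0.93 (exact permutation test, p = 0.00694, adjusted p = 0.156) and rho = 1 (p = 0.00278, adjusted p = 0.0625), and r was 0.94 without WT replicate 1 and KO replicate 2. Cyp2b10, the classical CAR target, had log2 values of 5.84, 4.06 and 4.64 in WT and 3.07, 6.6 and 3.23 in KO. Its 6 libraries stood in the same order as those of Slco1a4, with KO replicate 2 and WT replicate 1 highest and KO replicates 1 and 3 lowest. KO replicate 2 and WT replicate 1 were the 2 highest libraries in 6 of the 10 genes of this list. Of the receptor genes, Nr1i3 (CAR) lay between 8.61 and 9.24 and Nr1i2 (PXR) between 9.59 and 10.15 on the log2 scale. Their SD over the 6 libraries exceeded that of 60.3% and 63.6% of genes of a similar mean level. Nr1i2 was highest in KO replicate 2 and WT replicate 1, at 10.15 and 10.14, just above WT replicate 2 at 10.11. Nr1i3 was highest in WT replicate 1 and KO replicate 3. The part of receptor level in Slco1a4 was not tested.

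Slco1a1 had its highest r with the male-biased list. The mean centred level of that list came to 0.41, -0.21 and -0.11 in WT, compared with -0.12, -0.84 and 0.87 in KO. KO replicate 3 was highest and KO replicate 2 lowest, as for Slco1a1. The correlation was r = 0.93 (exact permutation test, p = 0.0139, adjusted p = 0.172) and rho = 0.83 (p = 0.0583, adjusted p = 0.328). Without KO replicates 2 and 3 r was 0.65, so the relation leaned on those tumors. Hsd3b5, a steroid dehydrogenase gene of male liver, had log2 values of 6.46, 6.24 and 4.16 in WT and 6.10, 4.35 and 9.10 in KO. Elovl3, a fatty acid elongase gene, had 7.23, 6.18 and 6.74 in WT and 8.35, 5.54 and 9.42 in KO. Of the 10 genes of the list, 1, Elovl3, had KO replicate 3 highest and KO replicate 2 lowest. KO replicate 3 was the highest library in Hsd3b5, Elovl3, Cyp7b1, Mup20, Selenbp2 and C6. WT replicate 1 was highest in Cyp2d9, Cyp4a12a and Cyp4a12b, and WT replicate 2 in Moxd1. All mice were male, so the list describes a spread among tumors of 1 sex.

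The pairings were not particular to 1 list. Slco1a4 had r = 0.90 with the NRF2 list (exact permutation test, p = 0.0417, adjusted p = 0.257), and with the CAR and PXR list r was 0.91 for Abcc4, 0.82 for Abcc3 and 0.81 for Abcb4 (exact permutation p of 0.025, 0.0514 and 0.0222, adjusted p of 0.188, 0.257 and 0.188). Spearman rho was 0.83 for Slco1a4 with the NRF2 list and 0.71, 0.83 and 0.83 for the other three (exact permutation p of 0.0583, 0.136, 0.0583 and 0.0583, adjusted p of 0.328, 0.51, 0.328 and 0.328). Without the 2 farthest libraries r was 0.81 for Slco1a4 with the NRF2 list and 0.44, 0.083 and 0.37 for Abcc4, Abcc3 and Abcb4 with the CAR and PXR list, so these 3 relations rested on WT replicate 1 and KO replicate 2.

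**Figure D4:**
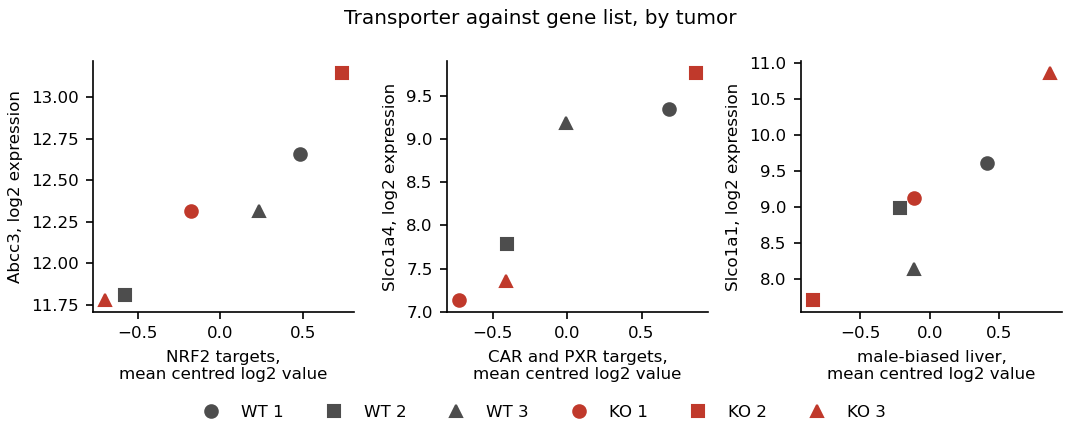
Log2 expression of Abcc3, Slco1a4 and Slco1a1 (y axes) against the mean centred log2 level of the NRF2, CAR and PXR, and male-biased lists (x axes), 1 point per tumor, with WT in grey, Top1mt-KO in red and the marker giving the replicate. Points of both genotypes lie along each trend, with r of 0.96, 0.93 and 0.93, and KO replicates 2 and 3 lie at opposite ends of the Abcc3 and Slco1a1 panels.

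Markers of other cell types were set beside these orders. WT replicate 1 and KO replicate 2 had the highest log2 values of the collagen gene Col1a1, 11.75 and 11.54, against 9.57 to 10.11 in the others. The stellate cell list of 6 genes, which includes Col1a1, was also highest in these libraries by its mean centred level, at 0.69 in WT replicate 1 and 0.26 in KO replicate 2, against -0.68 to 0.08 in the others. Its genes were not of 1 order. Col1a1 and Pdgfrb had these libraries highest, while Lrat, Des, Reln and Acta2 did not. Reln was lowest in KO replicate 2, at 11.93, and Acta2 was highest in KO replicate 3, at 8.75. The summed level of the stellate list, led by Reln, had log2 values of 13.76, 13.62 and 13.31 in WT, compared with 13.67, 13.05 and 12.83 in KO. KO replicate 2 was thus not high on the sum. The cholangiocyte list of 8 genes had 5 genes lower and 3 higher in KO, with a median log2 fold change of -0.48 and 2 genes at an unadjusted p under 0.05, the bile duct keratins Krt19 and Krt7, at -2.68 and -2.20 (limma, adjusted p = 0.987 and 0.999), against 2.56% of all genes lower at that level. Without WT replicate 2 these were -3.27 and -2.46, and without KO replicate 1 -2.49 and -1.64, while the list's median was -0.25 without KO replicate 1. Median log2 fold changes were 0.09 for the hepatocyte list, 0.05 for Kupffer cells, 0.10 for endothelial cells, -0.40 for stellate cells (0.11 without KO replicate 1) and -0.06 for leukocytes, and no gene of these lists passed the adjusted threshold. The part of these cells in the transporter values was not tested.

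**Figure D5:**
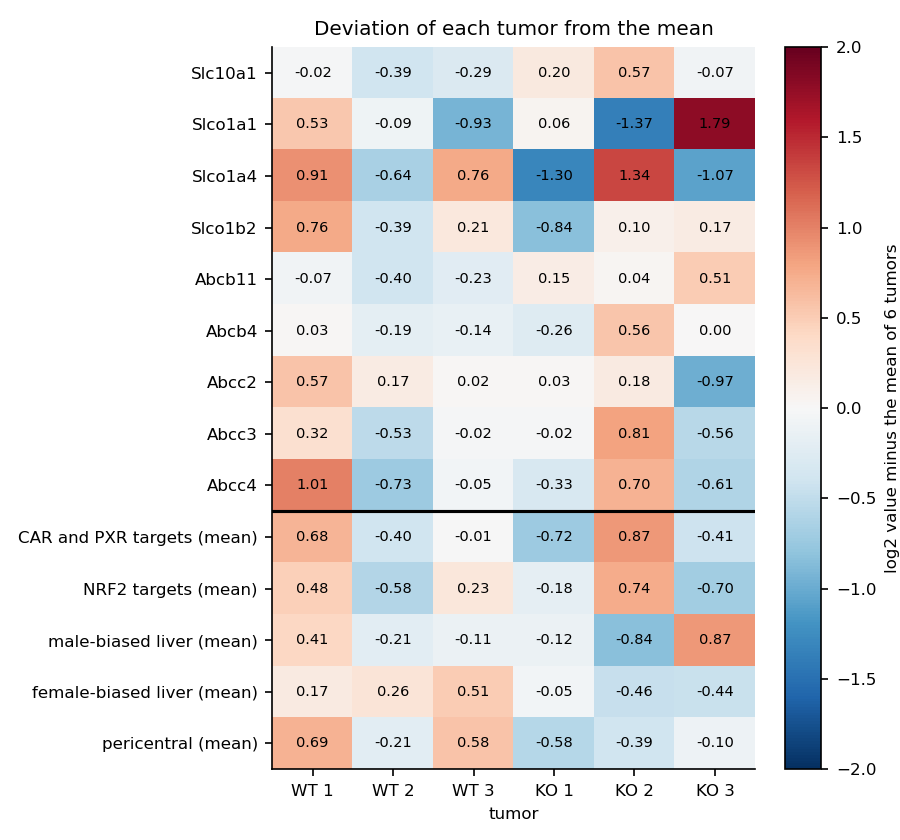
Log2 value of each transporter in each tumor (columns) minus its mean over the 6 tumors, with the mean of 5 gene lists under the line, on a color scale from -2 to 2. KO replicates 2 and 3 lie on opposite sides of the mean for Slco1a1, at -1.37 and 1.79, and for Slco1a4, at 1.34 and -1.07. For Slco1a4 the lowest is KO replicate 1, at -1.30.

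By profile over the 6 libraries, the genes most like the 3 transporters of largest SD were sought among 8413 genes with an SD of at least 0.5. For Slco1a4 these were Entpd5, Nol3 and 1700019A02Rik, with r of 0.985, 0.984 and 0.980, and 51 genes had r above 0.95. For Slco1a1 these were Trpm4, Hsd3b5 and Cox6a2, with r of 0.981, 0.977 and 0.973, and 3 genes had r above 0.95. For Abcc4 these were Ugt1a6b, Snhg11 and Tex47, with r of 0.987, 0.985 and 0.982, and 16 genes had r above 0.95. With 6 libraries and this many genes searched, such values are a description of likeness.

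Other genes of the transport system were read from lists that cover each membrane, and 0 genes of the 11 lists (109 measured) passed the adjusted threshold by limma. Of 5 other basolateral uptake carriers 4 had a positive log2 fold change and 1 a negative one, with a median of 0.03 and 0 at an unadjusted p under 0.05. Of 8 other canalicular transporters 3 had a positive and 5 a negative log2 fold change, with a median of -0.31, which was 0.02 without KO replicate 3, and 0 at that level. The sterol exporter genes Abcg5 and Abcg8, whose products work as a dimer and which are named after their values were seen, had log2 fold changes of -0.84 and -0.58, with KO replicate 3 lowest in both. Without WT replicate 2 they were -0.59 and -0.37, and without KO replicate 1 -1.20 and -0.93. Of 5 other basolateral exporters 2 had a positive and 3 a negative log2 fold change, with a median of -0.14 and 0 at that level.

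Genes of the apical domain and its scaffold, which hold canalicular pumps in place, made up a list of 12. Of these, 8 had a positive and 4 a negative log2 fold change, with a median of 0.21, and 4 had an unadjusted p under 0.05, 2 in each direction, against 1.79% higher and 2.56% lower among all genes. Ezr, Slc9a3r1 and Ceacam1 were among them, named here after their values were seen, and the groups of each did not overlap. In the whole list the groups did not overlap in 3 genes higher and 2 genes lower in KO, against 8.28% of all genes in either direction. Ezr, encoding ezrin, which ties membranes to actin, had log2 values of 8.43, 8.42 and 8.22 in WT and 5.94, 7.55 and 7.08 in KO, a log2 fold change of -1.50 (limma, adjusted p = 0.987). Slc9a3r1, encoding the scaffold that binds ezrin and Abcc2, had 11.27, 11.08 and 11.46 in WT and 10.46, 10.74 and 10.82 in KO, a log2 fold change of -0.60 (limma, adjusted p = 0.987). Ceacam1, an adhesion molecule of the canalicular membrane, had 9.96, 10.06 and 10.07 in WT and 10.79, 10.35 and 10.71 in KO, a log2 fold change of 0.59. Without WT replicate 2 the log2 fold changes of Ezr, Slc9a3r1 and Ceacam1 were -1.47, -0.69 and 0.60, and without KO replicate 1 -1.04, -0.49 and 0.50. The hepatocyte ezrin relative radixin, Rdx, overlapped between the groups, at a log2 fold change of 0.35. Ezrin is also abundant in bile duct cells, and the cholangiocyte keratins Krt19 and Krt7 were lower in KO as given above. The cholangiocyte list as a whole was split, with 5 genes lower and 3 higher in KO. The part of bile duct cells in Ezr was not tested.

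Among 16 regulators of the transporters 6 had a positive and 10 a negative log2 fold change, with a median of -0.10 and 0 at an unadjusted p under 0.05. The bile acid receptor gene Nr1h4 (FXR) had log2 values of 10.67, 10.59 and 10.55 in WT and 10.22, 11.03 and 10.72 in KO, with a log2 fold change of 0.05. Its target Nr0b2 (SHP), a repressor, had 8.20, 7.22 and 8.57 in WT and 8.18, 6.57 and 7.43 in KO, overlapping, with a log2 fold change of -0.60. Without WT replicate 2 these were 0.04 and -0.99, and without KO replicate 1 they were 0.27 and -0.998. Abcb11 and Nr0b2 are both known targets of FXR. Their log2 fold changes had opposite signs, neither passed the adjusted threshold, and the activity of FXR was not tested.

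The lists of target and zonal genes gave no call either. Of the 12 NRF2 genes 5 had a positive and 7 a negative log2 fold change, with a median of -0.05, and of the 10 CAR and PXR genes 3 had a positive and 7 a negative one, with a median of -0.15 and 2 lower at an unadjusted p under 0.05. Among all genes 2.56% were lower at that level and 47.7% had a positive log2 fold change. The male-biased list divided 5 to 5 with a median of -0.04, and the female-biased list 3 to 9 with a median of -0.34 and 3 lower at that level. The 9 measured pericentral genes divided 1 to 8 with a median of -0.47 and 4 lower at that level, and the 10 periportal genes 5 to 5 with a median of 0.10. Without WT replicate 2 the medians were -0.36 for the NRF2, -0.51 for the CAR and PXR, -0.24 for the male-biased, -0.48 for the female-biased, -1.01 for the pericentral and -0.22 for the periportal list, and without KO replicate 1 they were -0.04, 0.11, 0.07, -0.33, -0.44 and -0.01. Slco1b2, of the 9 transporters, had the highest correlation with the pericentral list, r = 0.81 (exact permutation test, p = 0.05, adjusted p = 0.257) and rho = 0.94 (p = 0.0167, adjusted p = 0.25). Without the 2 farthest libraries its r was 0.68.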

How the data were processed

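RNA was sequenced from 3 WT and 3 Top1mt-KO liver tumors, grouped by the genotype in the sample labels. The table deposited by the authors lists a log2 value per gene and library. The submitters' processing notes name bcl2fastq 2.17, Trimmomatic 0.36, STAR 2.5.1, GRCm38 and Subread for the authors' files, whereas the study's methods name another aligner and an older mouse build. For that reason the only coordinates given are those of the RefSeq upstream windows. The log2 transform is not named, and low values look shrunken, which understates differences in scarce genes. No counts were recovered, so depth is unknown and limma took the place of the authors' DESeq2 test. The 3 columns without a name, which hold a few leftover values of the authors' own comparison, were not used, and there were 0 further columns of per-sample values.

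Differences between genotypes were fitted in R 4.3.3 by limma 3.58.1 (lmFit and eBayes with a trend, genotype only) on the 22677 of 30236 genes whose mean lay above the lowest 25%, with Benjamini-Hochberg adjustment over all of them and a threshold of 0.05. The fit was tested on simulated data. Single values had exact two-sided permutation tests of all 20 regroupings, and correlations by exact permutation (scipy 1.17.1, Python 3.11.15). Labels do not say that replicates are separate animals, so p-values measure the spread between these libraries.

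The transporters and lists were chosen with earlier results of these data known. Named genes are the 9 transporters, Top1mt, list genes on which a transporter result turns, and the 3 genes most correlated with each of the 3 transporters of largest SD. Of the list genes, 1 is not reported here by name. Gene models came from GENCODE and upstream windows from RefSeq on GRCm38.p6. The alternatives were no trend, robust estimation, quantile normalization, no filter, a filter at the median, a replicate block, each library left out, and KO replicate 1 and WT replicate 3 both left out, the libraries highest in Gm42418.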

Additional observations from a re-analysis of the deposited data

How the results depend on the processing

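No transporter passed the adjusted threshold under any of the 13 alternatives. Slc10a1 and Abcb11 stayed higher in KO in all 13, at log2 fold changes between 0.30 and 0.62 and between 0.33 and 0.56, and Slco1a4, Slco1b2 and Abcc2 had negative log2 fold changes in all 13, of which those of Slco1a4 and Slco1b2 were close to 0, at -0.0030 and -0.050, with KO replicate 1 and WT replicate 3 both left out. The number of transporters at an unadjusted p under 0.05 was 0 without a trend, after quantile normalization and without WT replicate 2, WT replicate 3 or both KO replicate 1 and WT replicate 3, 1 without a filter, and 0 to 2 with each library left out. Over all genes, 4 were called without a filter and 0 to 1 with each library left out, the 1 without KO replicate 1. The number of transporters higher in KO was 3 to 6 with each library left out, 3 without KO replicate 2 and 6 without WT replicate 1. With each library left out, the log2 fold change ran from -0.49 (without KO replicate 3) to 1.09 for Slco1a1, where it was also -0.06 without WT replicate 3, from -0.026 (without KO replicate 2) to 0.38 for Abcb4, from -0.22 (without KO replicate 2) to 0.47 for Abcc3, where it was also -0.07 without WT replicate 2, from -0.56 to 0.31 (without WT replicate 1) for Abcc4, where it was also 0.11 without KO replicate 3, and from -1.76 to -0.75 for Top1mt. The difference of Slco1a4 from Slco1a1 ran from -2.62 to 0.17 and that of Slc10a1 from Abcb11 from -0.26 to 0.29, and with KO replicate 1 and WT replicate 3 both left out these were 0.0052 and -0.051, with Slco1a1 at -0.0082. The median log2 fold change of the pericentral list was -1.01 without WT replicate 2, that of the periportal list -0.22 without WT replicate 2, that of the other canalicular transporters 0.02 without KO replicate 3, that of the stellate list 0.11 without KO replicate 1 and that of the female-biased list -0.67 without WT replicate 3 and -0.96 with a filter at the median. The cause was not tested. The correlations of Abcc3, Slco1a4 and Slco1a1 with their lists, recomputed by choices made after seeing the data, stayed at 0.94 to 0.98, 0.90 to 0.99 and 0.85 to 0.98 with each library left out and at 0.97, 0.93 and 0.93 after quantile normalization.

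Same-numbered WT and KO libraries had correlations of their deviations of -0.123, -0.0759 and 0.0520, so the samples share only a number. With the replicate number as a block, 0 genes were called, 912 had an unadjusted p under 0.05 and 0 transporters did. Depth is unknown, and 3 libraries a group limit the precision of every value.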
